A study of Mus musculus with 3 samples.

Results

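The genes described here write, erase or shield DNA methylation in the mouse blastocyst. They are Dnmt1 and Uhrf1, Dnmt3a, Dnmt3b and Dnmt3l, Tet1, Tet2 and Tet3, and Dppa3 and Trim28. The 10 genes were chosen by name, and every non-control probe whose RefSeq accession maps to 1 of them was read, which gave 19 probes. The array design holds 33759 probes that could be named in this way, for 23458 genes. All 19 probes were well above background on all 3 arrays by the call of the scanner software.

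After fertilization most of the DNA methylation inherited from the gametes is lost during cleavage, and it is laid down again around implantation. Dnmt1 copies the mark onto the new strand after replication, and Uhrf1 brings it to hemimethylated sites. Dnmt3a and Dnmt3b methylate unmarked DNA, with Dnmt3l as a partner that has no catalytic activity of its own. The TET enzymes oxidise 5-methylcytosine, which leads to its loss. Dppa3, also called Stella, shields the maternal genome from this oxidation, and Trim28 is the co-repressor through which zinc finger proteins keep imprinted regions methylated. The arrays measured the RNA of these genes and not the methylation of DNA.

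Each array held RNA from 1 pool of 30 expanded blastocysts, and 1 array stands for each condition. Young embryos came from superovulated ICR females of 3 to 6 weeks of age, and aging embryos from superovulated ICR females of 43 to 53 weeks. Zygotes were collected 18 h after hCG and cultured in KSOM for 96 h. The suppressed aging embryos were given 10 μg/ml of an antibody that neutralizes the chemokine CXCL5 and 10 nM of an antagonist of its receptor CXCR2 during culture, whereas the young and the aging embryos were given neither. There was no young group with the signal suppressed, and each pool mixes trophectoderm with inner cell mass, so fewer cells of a type and less RNA per cell cannot be told apart.

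Levels are log2 intensities minus the 75th percentile of the array. That percentile was an intensity of 145, 155 and 122 in the order young, aging, suppressed aging. A level of 0 is therefore a probe as bright as that percentile, and a difference of 1 between arrays is 2-fold. Levels of different probes cannot be set against each other, since each probe binds its target with its own strength. No test between conditions was possible with 1 array each. The error given is the SD of a difference that follows from the scanner software's own error for each spot, and it holds no spread between embryos or pools. Each member probe was printed as 1 spot. Among the 288 to 290 probes that were printed more than once, the median SD of log2 intensity between spots was between 0.045 and 0.052.

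Most promoters of these genes held many CG dinucleotides, the sites at which DNA is methylated. Methylation of these promoters was not measured. RefSeq windows of 300 bases, from 250 bases before to 50 bases after a transcription start (GRCm38.p6), matched 9 of the 10 genes by symbol with 16 windows, and Dppa3 had no entry. Windows of the same gene can overlap. The median member window held 20 CG dinucleotides, against a median of 7 over all 32851 mouse windows, of which 94.6% held at least 1. The range among members was wide. Tet2 stood at 57, the windows of Dnmt3a at 18, 46 and 47, those of Dnmt1 at 2, 12 and 33, and the 3 windows of Dnmt3l at 3, 4 and 6. The following 3 windows show the span, from the Dnmt1 window with the fewest CG dinucleotides through Tet1 to Tet2 with the most. The probes of Tet1 put the 3 arrays in the same order, as described below. Capitals mark CG.

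Dnmt1, chr9:20959839-20960138, minus strand: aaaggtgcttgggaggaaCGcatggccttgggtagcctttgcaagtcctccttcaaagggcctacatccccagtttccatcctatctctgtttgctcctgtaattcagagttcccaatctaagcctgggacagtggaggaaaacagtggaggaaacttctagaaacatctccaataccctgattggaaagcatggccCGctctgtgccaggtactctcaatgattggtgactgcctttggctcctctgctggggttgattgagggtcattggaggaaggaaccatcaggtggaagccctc

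Tet1, chr10:62887275-62887574, minus strand: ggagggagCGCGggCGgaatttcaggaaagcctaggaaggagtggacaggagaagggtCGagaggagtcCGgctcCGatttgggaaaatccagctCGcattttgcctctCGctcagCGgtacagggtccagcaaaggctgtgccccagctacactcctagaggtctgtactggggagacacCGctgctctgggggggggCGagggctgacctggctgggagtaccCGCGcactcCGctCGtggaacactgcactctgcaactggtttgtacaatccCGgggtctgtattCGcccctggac

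Tet2, chr3:133544341-133544640, minus strand: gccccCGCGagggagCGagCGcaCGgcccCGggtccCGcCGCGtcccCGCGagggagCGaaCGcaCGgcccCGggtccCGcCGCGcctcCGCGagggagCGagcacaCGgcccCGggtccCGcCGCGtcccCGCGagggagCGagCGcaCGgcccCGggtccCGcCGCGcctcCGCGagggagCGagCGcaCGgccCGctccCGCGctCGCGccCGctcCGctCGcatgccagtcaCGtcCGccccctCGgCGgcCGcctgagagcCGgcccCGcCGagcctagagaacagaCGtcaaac

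**Figure D1:**
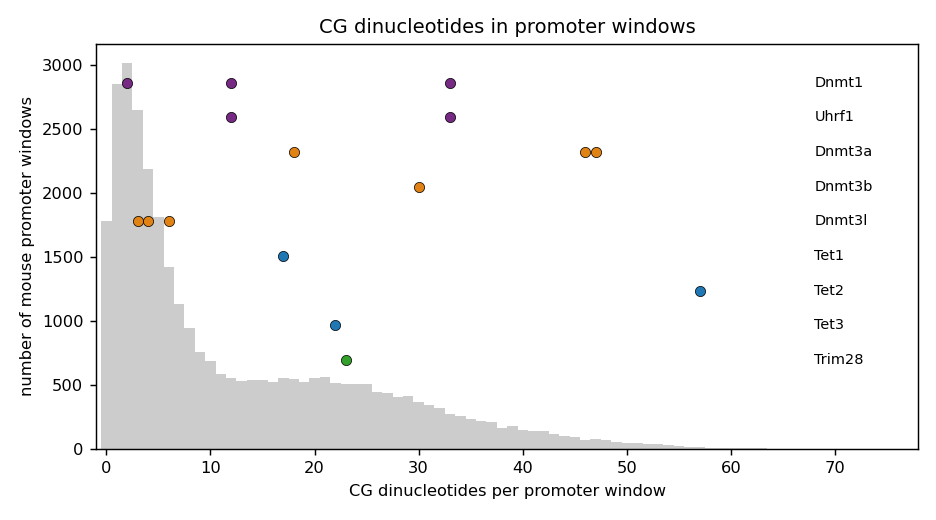
Number of CG dinucleotides in promoter windows. Grey bars count all 32851 mouse windows (vertical axis) by the number of CG dinucleotides each holds (horizontal axis), and each coloured point is a window of the gene named at the right, with the height of the points set only by the gene. The windows of Dnmt3l, at 3, 4 and 6, and 1 of Dnmt1, at 2, lie in the peak of the distribution, and the Tet2 window at 57 lies in its far tail.

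Other short motifs were searched in the same windows on both strands. The GC box GGGCGG, which itself holds a CG, was found in 13 of the 16 member windows and in 35.7% of all windows. The CCAAT box CCAAT was found in 5 of 16 and in 37.4% of all, and the E-box CACGTG, which also holds a CG, in 2 of 16 and in 7.15% of all. The letters TATAAA were in none of the 16 windows and in 13.6% of all. The octamer ATGCAAAT, the motif of Pou5f1, was in none of the 16 and in 1.74% of all.

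Maintenance of methylation rests on Dnmt1 and Uhrf1. The single Dnmt1 probe read intensities of 171, 144 and 157 on the young, aging and suppressed aging arrays, which gave levels of 0.24, -0.10 and 0.36. The aging array was the lowest, by 0.34 ± 0.21 (SD from scanner error) on the log2 scale from young and by 0.46 ± 0.21 from suppressed aging. Young and suppressed aging differed by 0.12, which is less than that SD.

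Uhrf1 was read by 2 probes, here called first and second by their mean signal over the arrays, as for all genes below. The first read levels of 5.48, 5.49 and 5.31 on the young, aging and suppressed aging arrays, and aging and young differed by 0.02 ± 0.20 (SD from scanner error). The second read 3.65, 2.95 and 3.20, so that aging was lower than young by 0.70. Only the second probe of Uhrf1 separated young from aging by more than the scanner error.

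**Figure D2:**
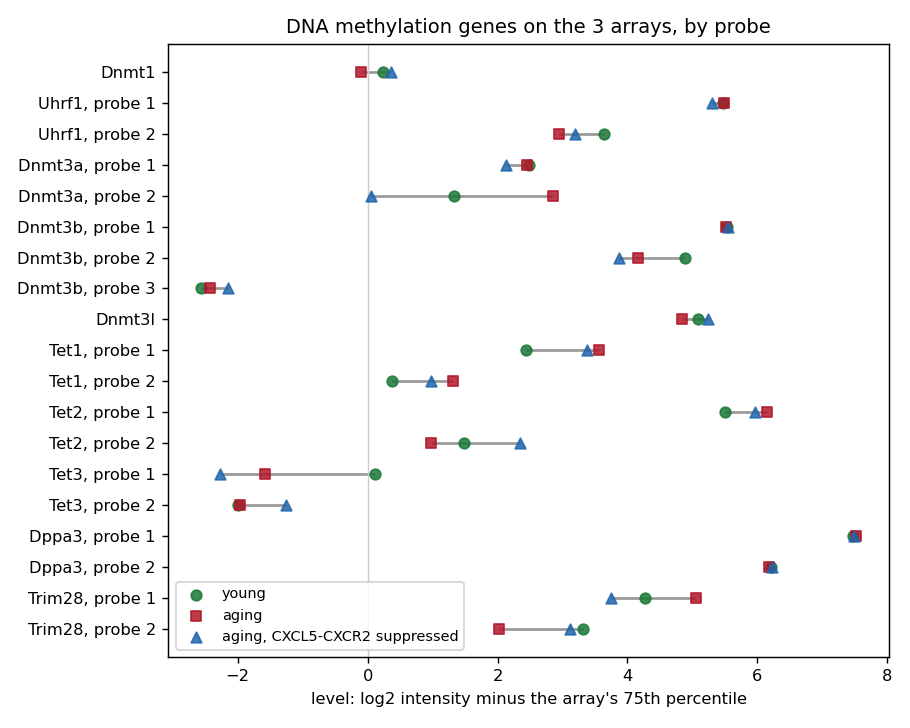
Level of each member probe on the 3 arrays. The horizontal axis is the log2 intensity minus the 75th percentile of the array, each row is a probe, and the circle, square and triangle are the young, aging and suppressed aging arrays, with 1 array each and a grey line over their range. The 3 symbols of Dppa3 coincide on both of its probes, and the widest ranges are those of the second probe of Dnmt3a, from 0.05 to 2.85, and of the first probe of Tet3, from -2.27 to 0.11.

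Among the de novo methyltransferases, the first probes of Dnmt3a and Dnmt3b differed between young and aging embryos by less than the scanner error, and their second probes by more. The first probe of Dnmt3b read intensities of 6724, 7049 and 5700 on the young, aging and suppressed aging arrays, and levels of 5.54, 5.51 and 5.54. All 3 pairwise differences were at most 0.03 in size, against a scanner-error SD of 0.20. The second probe of Dnmt3b read 4.88, 4.16 and 3.86, highest in young, and suppressed aging was lower than young by 1.02 there. The remaining, dim probe read -2.56, -2.43 and -2.15, the reverse order, within 0.41 from lowest to highest.

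Dnmt3a showed a wide gap between its own probes. The first read levels of 2.48, 2.45 and 2.13, with aging and young apart by 0.03. The second read intensities of 363, 1117 and 127 on the young, aging and suppressed aging arrays, at levels of 1.32, 2.85 and 0.05. On that probe aging was higher than young by 1.53 ± 0.20 (SD from scanner error), and suppressed aging was lower than aging by 2.80. Suppressed aging was lower than aging on both probes, but by 0.32 on the first, so the size of the difference depended on the probe by 2.49 on the log2 scale.

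Dnmt3l, the cofactor, had 1 probe, with intensities of 4932, 4406 and 4621 and levels of 5.09, 4.83 and 5.24. Aging was lowest, by 0.26 from young and by 0.41 from suppressed aging, each with a scanner-error SD of 0.20. The 2 genes with a single probe, Dnmt1 and Dnmt3l, thus both read lowest on the aging array.

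The largest differences of the genes' first probes between young and aging were those of TET enzymes, and they went in both directions. Tet1, which is expressed in the inner cell mass and in embryonic stem cells, read intensities of 785, 1818 and 1271 on the young, aging and suppressed aging arrays with its first probe, at levels of 2.44, 3.56 and 3.38. Its second probe read intensities of 187, 383 and 240, at levels of 0.37, 1.31 and 0.97. Aging was higher than young by 1.12 ± 0.20 on the first and by 0.94 ± 0.20 on the second (SD from scanner error), and suppressed aging lay between them on both, lower than aging by 0.18 and 0.34. The 0.18 on the first probe was less than the scanner-error SD, so the order of suppressed aging and aging is not settled there. Tet1 was the only one of the 8 genes with more than 1 probe whose probes all put the 3 arrays in the same order. The share of all genes whose probes do so was not counted, so this is not read as particular to Tet1.

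Tet2 did not read alike on its probes. The first read 5.51, 6.15 and 5.96, higher in aging than in young by 0.64. The second read 1.49, 0.98 and 2.34, lower in aging than in young by 0.51, and higher in suppressed aging than in aging by 1.36. Both probes put suppressed aging above young, by 0.45 and 0.85.

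Tet3, the enzyme of the oocyte and zygote, gave intensities of 157, 51.9 and 25.3 on the young, aging and suppressed aging arrays with its first probe, highest in young. Its levels were 0.11, -1.57 and -2.27, and aging was lower than young by 1.69 ± 0.21 and suppressed aging lower than young by 2.39 ± 0.23 (SD from scanner error). The second probe read levels of -2.00, -1.96 and -1.25, with aging and young apart by 0.03 and suppressed aging the highest by 0.71 from aging. Under normexp background correction, which treats dim signal differently, the first-probe difference between aging and young was -0.99, and that between suppressed aging and young was -1.07.

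Of the protectors, Dppa3 read nearly alike on all arrays, and the reading of Trim28 depended on the probe. Dppa3 read levels of 7.48, 7.52 and 7.49 with its first probe, at intensities of 25876, 28300 and 22043, and 6.20, 6.17 and 6.22 with its second. Both probes stayed within 0.04 over the 3 arrays, against a scanner-error SD of 0.20 for each pair, so no difference in Dppa3 was detectable between the conditions with these arrays.

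Trim28 read intensities of 2810, 5143 and 1634 on the young, aging and suppressed aging arrays with its first probe, at levels of 4.28, 5.06 and 3.74. The second probe read 1440, 627 and 1062, at levels of 3.31, 2.02 and 3.12. On the first the aging array was the highest, by 0.78 from young and by 1.32 from suppressed aging, and on the second it was the lowest, by 1.29 and 1.10, each with a scanner-error SD of 0.20. Trim28 therefore has no settled direction in either comparison. The mean of its probes put aging below young by 0.26 and suppressed aging below aging by 0.11.

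**Figure D3:**
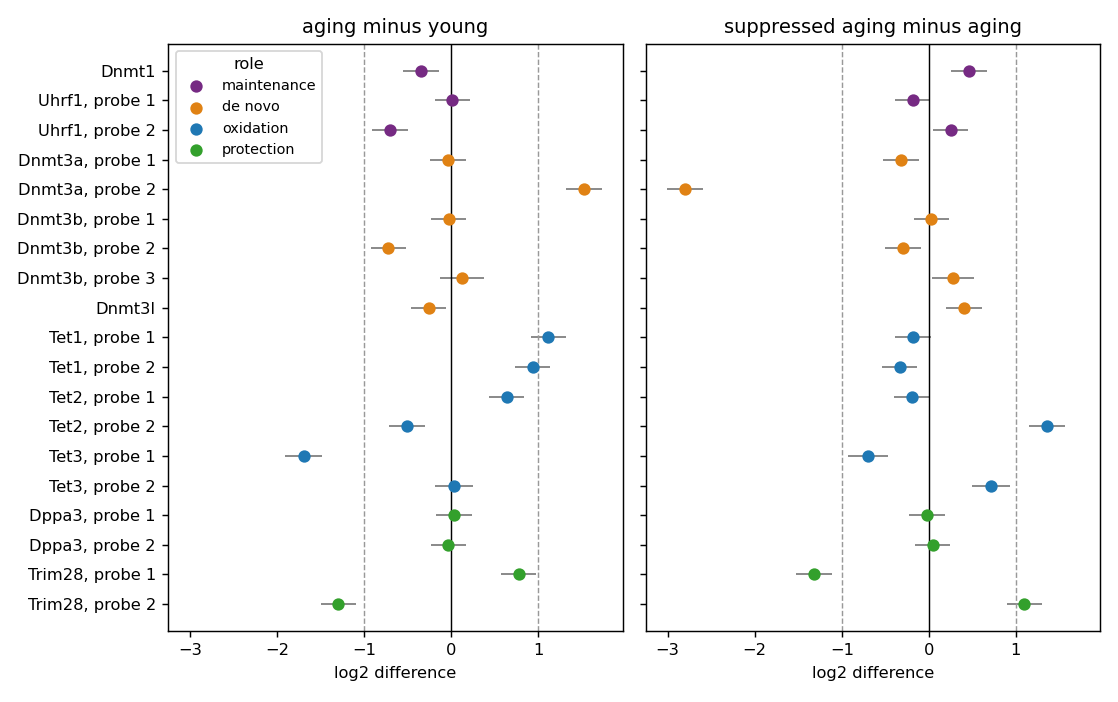
Differences between arrays for each member probe. The horizontal axis is the log2 difference, with aging minus young on the left and suppressed aging minus aging on the right, the points are coloured by role, the bars are 1 SD from the scanner software's error and the dashed lines mark 2-fold. Both Tet1 probes lie near 1 on the left, at 1.12 and 0.94, and the probes of Trim28 lie on opposite sides of 0 in both panels.

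Over the set, with each gene read by its first probe, 5 genes were higher and 5 lower in aging than in young embryos, and the median difference was -0.00, against 0.03 over all 16174 genes compared. The differences of Uhrf1, Dnmt3a, Dnmt3b and Dppa3 were at most 0.04 in size, and those of Dnmt3a and Dnmt3b changed sign with centring on housekeeping genes. Tet1 was over 2-fold higher, where 9.85% of all genes were, and Tet3 was over 2-fold lower, where 9.21% of all genes were. Of the 19 probes, 4 were over 2-fold apart in either direction, where 21.1% of all probes were. The member count is near this background.

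Set against aging embryos, the suppressed aging embryos had 3 genes higher and 7 lower. The median was -0.18, against -0.00 over all 15880 genes compared. No member was over 2-fold higher, where 8.77% of all genes were, and Trim28 was over 2-fold lower, where 8.49% of all genes were. Over 2-fold in either direction were 4 of the 19 probes and 19.0% of all probes. This comparison shares the aging array with the one before it, so a high or low reading on that array enters both with opposite sign.

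Against young embryos, the suppressed aging embryos had 6 genes higher and 4 lower, and the median was 0.01, against 0.03 over all 15940 genes compared. No member was over 2-fold higher, where 8.68% of all genes were. Tet3 was over 2-fold lower, where 7.65% of all genes were, and it was the only member whose first probe was over 5-fold apart in any comparison. Of the probes, 3 of 19 and 18.1% of all were over 2-fold apart.

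Most member probes were bright, and bright probes differed less between arrays. The 28788 probes above background on all 3 arrays were put into 4 groups of 7197 by mean level, and 12 of the 19 member probes fell in the brightest group. There, 4.90% of all probes were over 2-fold apart between aging and young, against 24.2% in the dimmest group. Of the 12 bright member probes, 2 were over 2-fold apart in this comparison, the first of Tet1 and the second of Trim28. Between suppressed aging and aging, 3.68% of the brightest group and 2 of the 12, both of Trim28, were over 2-fold apart. The first probe of Tet3 lay in the next to dimmest group, where 22.2% of all probes were over 2-fold apart between aging and young.

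**Figure D4:**
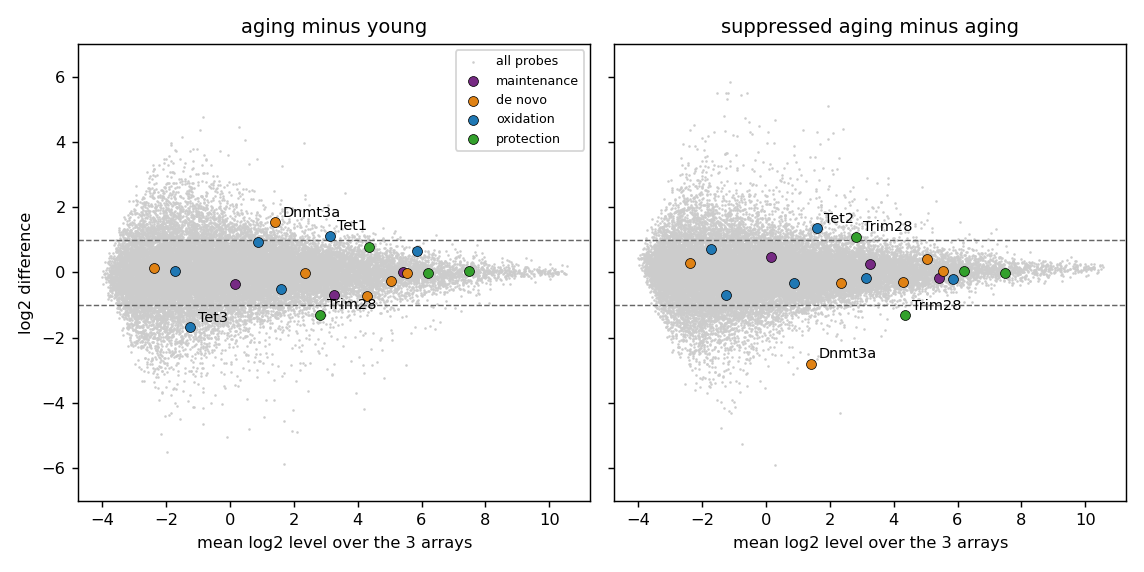
Difference between arrays by mean level. The horizontal axis is the mean log2 level over the 3 arrays, the vertical axis is the log2 difference, aging minus young on the left and suppressed aging minus aging on the right, grey points are the 28788 probes above background on all 3 arrays and coloured points are the member probes by role, named where they pass the dashed 2-fold lines. The grey cloud narrows from left to right, and the Dppa3 probes, the protection points furthest right, lie within 0.04 of 0 in its narrow end.

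Probes of the same gene differed for many genes on these arrays. Of 4679 genes with at least 2 probes above background on all 3 arrays, 57.0% had the first 2 probes on the same side of 0 in aging against young, and the median gap between them was 0.54. The share on the same side was 54.6% in suppressed aging against aging and 56.2% in suppressed aging against young. Pearson's r between the differences of the 2 probes was 0.16 in aging against young and 0.10 in suppressed aging against aging, given as a description across genes that share the same arrays. Among the 8 member genes with at least 2 probes, all probes lay on the same side for 1, Tet1, in aging against young, for 2, Tet1 and Dnmt3a, in suppressed aging against aging, and for 6 in suppressed aging against young. No member had all its probes over 2-fold apart in the same direction in any comparison. Of the 4679 genes, the first 2 probes were so for 2.71% in aging against young. For suppressed aging the share was 2.07% against aging and 1.99% against young. The probes of a gene may read different transcripts, and the files used here give no probe sequences or positions, so which stretch each reads was not analysed here.

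**Figure D5:**
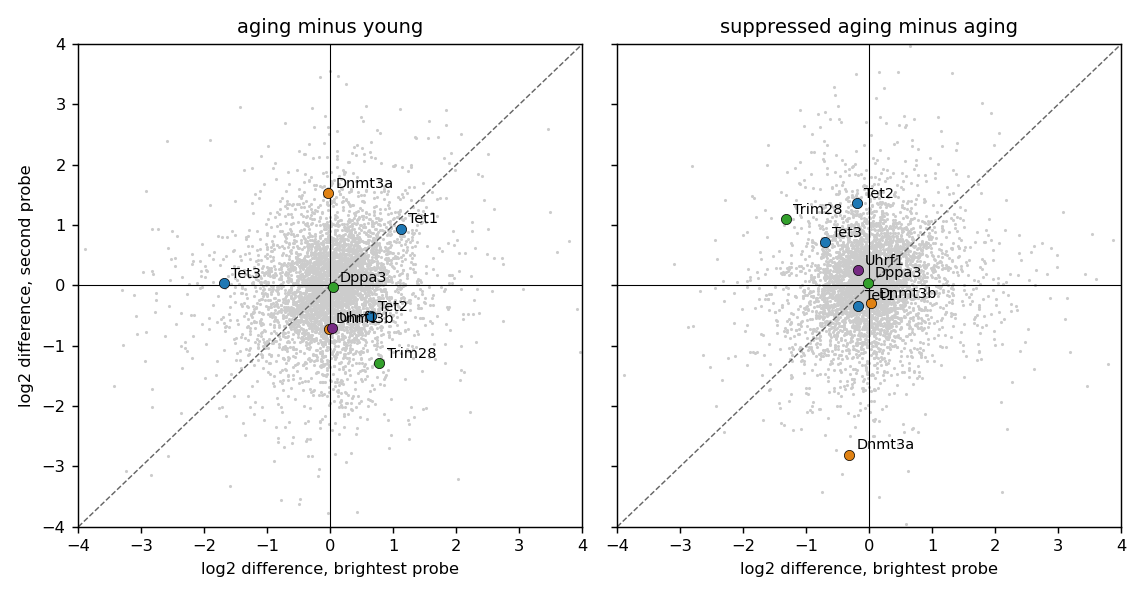
Agreement of the first and second probe of a gene. The horizontal axis is the log2 difference of the brightest probe and the vertical axis that of the second probe, aging minus young on the left and suppressed aging minus aging on the right, grey points are the genes among 4679 with at least 2 probes whose differences lie within the axes, and member genes are coloured by role and named. Tet1 lies near the dashed line of equal differences at 1.12 and 0.94 on the left, whereas Trim28 lies at 0.78 and -1.29.

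The member with the widest range of first-probe levels, Tet3, was set against all other genes above background on all 3 arrays. The genes most like it over the 3 arrays, by the root mean square distance between levels centred per probe, were Snx22 at 0.022, Sgms2 at 0.055 and D7Ertd443e at 0.060, among 13801 genes of which 5 lay within 0.1. With 3 arrays this likeness rests on 3 levels per gene.

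Of 80 partner genes in 7 lists, 77 gave a difference between aging and young, of which 7 were over 2-fold higher and 7 over 2-fold lower, with a median of 0.17. Of all genes, 9.85% and 9.21% were so. For suppressed aging against aging 76 did, 5 over 2-fold higher and 4 lower, where 8.77% and 8.49% of all genes were, with a median of -0.11. For suppressed aging against young 76 did, 7 over 2-fold higher and 7 lower, where 8.68% and 7.65% of all genes were, with a median of 0.07. Where a gene was measurable on a single array of a pair, its difference is a bound and is counted at that bound.

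The cofactors that guide or assist the methyltransferases were mostly higher in aging, by small differences. Of 11 measured, 10 were higher in aging than in young, none over 2-fold, and the median was 0.19, against 0.03 over all genes. Pcna at 0.05, Zmym2 at 0.14, Atrx at 0.16, Daxx at 0.18, Ehmt2 at 0.19 and Cdca7 at 0.20 were among the 10. Those differences were no larger than the scanner-error SD of 0.20 of bright member probes. The share of all genes that were higher was not counted. Setd2, which writes the H3K36 methylation that Dnmt3 enzymes bind, read levels of 3.97, 4.71 and 4.01 on the young, aging and suppressed aging arrays, and 3 of its 4 probes were higher in aging, by 0.74, 0.86 and 0.82, with the other lower by 0.55. Nsd1, another H3K36 methyltransferase, was higher by 0.73 on its first probe and by 0.19 on its other. Usp7, a deubiquitinase that binds Dnmt1, was higher by 0.39 and 0.12. Against aging, 7 of the 11 were lower in suppressed aging, with a median of -0.38. Setd2 was lower by 0.70, 0.61 and 0.74 on 3 probes and higher by 0.31 on the other. Zmym2 was lower by 0.59, with 0.47 and -1.09 on its other probes, and Hells, a chromatin remodeler needed for methylation, was higher by 0.67.

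Among partners above background on both arrays, the largest difference between aging and young was that of 1 of the 3 probes of Ahcyl1. It stands in the list drawn up for methyl donor supply. Of 14 measured, 1 was over 2-fold higher and 3 over 2-fold lower, with a median of -0.09. Ahcyl1 read 4.11, 1.33 and 2.12 on the young, aging and suppressed aging arrays, a difference of -2.78 between aging and young, whereas its other probes gave -0.43 and -0.42. Mat2b, the regulatory subunit of the enzyme that makes S-adenosylmethionine, was higher in aging on both of its probes, by 1.13 and 1.97. Gnmt, which uses up S-adenosylmethionine, was lower by 1.57 with its single probe. Between suppressed aging and aging none of the 14 was over 2-fold apart, and the median was -0.32, with Ahcy, which clears S-adenosylhomocysteine, lower by 0.87, Mat2b lower by 0.84 and Ahcyl1 higher by 0.80.

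Of the readers of methylated DNA, 8 were measured, 2 over 2-fold higher and 2 over 2-fold lower in aging than in young, with a median of 0.39. Mbd1 was higher by 1.50, with -0.66 and 2.31 on its other probes. Uhrf2 was lower by 1.40 and then higher by 2.34 in suppressed aging against aging, but its other probes gave -0.04 and 0.94 in the first comparison and -0.42 and -0.91 in the second. Mbd2 was lower by 0.95 in aging than in young and higher by 0.75 in suppressed aging than in aging, with -0.35 and -0.09 on its other probe.

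Partners of Trim28 and other imprint protectors were mostly lower in aging, 9 of 12, with a median of -0.08, and 2 were over 2-fold lower. Of the 9, Zfp42 at -0.00, Ctcf at -0.01 and Cbx3 at -0.04 were lower by less than the 0.07 that centring on housekeeping genes adds. Arid4b read -1.92 in aging against young and 2.10 in suppressed aging against aging on its first probe, -0.54 and 0.80 on another, and 1.33 and -1.93 on the last one above background. Cbx5, a heterochromatin protein, was lower in aging by 1.09 on its first probe and higher by 0.22 on its other, and Cbx1 was lower by 0.70. With the signal suppressed, 8 of 12 were higher than in aging, with a median of 0.15. Morc3 was higher by 0.89, with -0.60 on its other probe, and Arid4a lower by 0.85. Zfp57, the zinc finger protein that brings Trim28 to imprinted regions, read 1.97, 1.48 and 2.30 on its first probe, lowest on the aging array, and Setdb1, the histone methyltransferase that Trim28 recruits, read 0.33, 0.96 and 0.63, highest on the aging array.

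Of the enzymes that remove oxidised or deaminated bases, 13 of 14 were measured and 10 were higher in aging than in young, 2 of them over 2-fold, with a median of 0.24. Neil2, a DNA glycosylase, was higher by 1.55, from a dim level of -3.48 to -1.93, while its other probe was lower by at least 0.65. Apobec1, a cytidine deaminase that edits RNA, was not well above background on the young array with its first probe, which made aging higher by at least 4.04, while another of its probes was measured on both arrays and was higher in aging by 2.08. Smug1 was lower by 0.90, with 0.33 and -0.49 on its other probes, and Neil1 was higher by 0.67. With the signal suppressed, 5 of 13 were higher than in aging, with a median of -0.11. Gadd45a, a stress-induced gene linked to demethylation, was higher by 1.50 in suppressed aging than in aging, whereas Gadd45b was lower by 0.79. Apobec1 was lower by 0.82 on its first probe and by at least 2.57 on the other measured one. Tdg, the glycosylase that removes oxidised methylcytosine, read 1.69, 1.17 and 1.94 on its first probe, lowest on the aging array.

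Enzymes and partners that bear on TET activity numbered 8, 4 higher and 4 lower in aging, with a median of 0.03 and none over 2-fold. Idh1, which makes the TET cosubstrate 2-oxoglutarate, read 2.74, 2.74 and 2.76. Cxxc5 was higher by 0.91 in aging than in young and by a further 1.23 in suppressed aging, while its other probe gave 0.24 and -0.45. Ogt, the enzyme that binds TET proteins, was lower by 0.86 in aging on its first probe and higher by 0.17 on its other, and Prdm14 was lower by 0.85. Suppressed aging was above aging for 5 of the 8, with a median of 0.08, and lower for Idh2 by 0.66 and higher for Ogt by 0.45.

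Germline genes that promoter methylation is known to silence were read as an outcome list. Of 12, 11 were measured, 9 of them higher in aging than in young, with a median of 0.59. Dazl was not well above background on the young array and was higher in aging by at least 3.41, and Sycp1 was higher by 1.17, from a dim level of -2.86 to -1.70. Ddx4 was higher by 0.87 and Dpep3 lower by 0.83. Over 2-fold higher were 2 of the 11, and 9.85% of all genes. Suppressed aging was below aging for 8 of 11, with a median of -0.17, and over 2-fold lower for 3 of the 11, and for 8.49% of all genes. Ddx4 was lower by 2.42, Tex101 by 1.45 and Dazl by 1.36. The other probe of Tex101, not well above background on the aging array, gave at least 1.78 in the opposite direction. Dazl and Ddx4 are also expressed in oocytes and germ cells.

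Marker genes were read beside these values, since the mix of cells in a pool can differ. All 8 trophectoderm, 7 epiblast and 6 primitive endoderm markers were above background on all 3 arrays. All 7 epiblast markers were higher in aging than in young, with a median of 0.36, and Sox2 at 1.37, Fgf4 at 1.12 and Esrrb at 1.11 were over 2-fold higher. The summed linear level of the epiblast list, in units of the array's 75th percentile, was 1036, 1252 and 1153 on the young, aging and suppressed aging arrays. That of the trophectoderm list was 504.1, 382.0 and 449.2. Such a sum mostly follows the brightest probes of its list. These were Nanog for epiblast, at levels of 9.88, 10.14 and 10.03, and Krt18 for trophectoderm, at 8.05, 7.52 and 7.73. Not all trophectoderm markers followed their sum from young to aging. Of the 8, 2 rose in aging, Elf5 by 0.91 and Krt8 by 0.01. The other 6 fell, Tfap2c by 1.16, and the list median was -0.18. Primitive endoderm markers were split, 4 above young and 2 below it, and their median difference was 0.24. Pdgfra stood at 1.28 and Gata6 at 0.99, against -1.53 for Sox17. For Nanog, suppressed aging minus aging was -0.11 and suppressed aging minus young was 0.15. Both are smaller in size than the scanner-error SD of 0.20 of bright member probes. With that limit, Tet1 had the same order of arrays as the epiblast sum and as Nanog alone. Of the 7 epiblast markers, 5 were higher and 2 lower in suppressed aging than in young, so not all shared this order. The part of this mix in the Tet1 values was not tested.

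Some oocyte markers were also highest on the aging array. Of 9, 6 were above background on at least 1 array, and Zp1, Oosp1 and Mos on none. Zp2, Zp3 and Bmp15 were over 2-fold higher in aging than in young, with Bmp15 only as a bound. The other 3 were not, with Gdf9 at -0.06, Nlrp5 at -0.30 and H1foo, an oocyte linker histone, at 0.01. The summed level of the list was 16.8, 18.1 and 16.1 on the young, aging and suppressed aging arrays. That sum mostly follows H1foo, the brightest of the list, at levels of 4.01, 4.02 and 3.95. Zp2, Bmp15 and Gdf9 were over 2-fold lower in suppressed aging than in aging, Zp2 and Gdf9 only as bounds, as were Ddx4 and Dazl above, and the part of maternal transcripts in those values was not tested. Of 9 cumulus and granulosa markers, 6 were not above background on any array, Fshr and Lhcgr among them, and the other 3, Foxl2, Cyp19a1 and Amh, differed by less than 2-fold between every pair of arrays. Foxl2, a granulosa cell transcription factor, read 8.66, 8.54 and 8.77. Of 6 blood markers, 5 were on the array and 3 above background, Cd68, Hba-a1 and Alas2. Their summed level was 5.84, 4.15 and 2.22, led by Cd68 at levels of 2.30, 1.37 and 0.80.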

How the data were processed

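RNA from 3 pools of mouse blastocysts was hybridized to 1-colour Agilent mouse arrays, read on 1 slide. The labels name a kit that labels cRNA, the study's methods a single-primer PCR amplification, with no sign in the files of which it was. The authors deposited spot intensity values from Agilent Feature Extraction 12.0.3.1, with background subtracted and no scaling between arrays, and a table of processed values (intensity times 1 factor per array, 3.46, 3.34 and 3.96).

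Control and outlier spots were left out, log2 values averaged per probe and the array's 75th percentile subtracted, for 56591 probes. Names came from RefSeq accessions (GRCm38.p6 table). A gene was read by the probe with the highest mean level among those above background on at least 1 array. A probe above background on 1 of 2 arrays was given as a bound. The bound was taken against the higher of its own signal on the other array and that array's lowest signal well above background. Members and lists were chosen with earlier results of these data known. Named partners are the 3 largest differences per list in each comparison, among genes above background on both arrays, plus any over 2-fold in both comparisons. Setdb1, Zfp57, Tdg, Idh1, Apobec1 and Dazl as bounds, and the marker genes were named outside this rule, after their values were seen. So were Pcna, Atrx, Daxx, Ehmt2, Cdca7, Zfp42, Ctcf and Cbx3. Some genes of the lists enter the counts and are not reported here by name. A gene was called where it was over 2-fold apart, with no test between conditions. The script that makes the calls was checked on simulated data. Alternatives were normexp (offset 50, limma 3.58.1, R 4.3.3), quantile normalization, other centrings, the processed values, outlier spots kept, the mean of a gene's probes, other background filters and a 5-fold threshold. The second probe of a gene was added after seeing the data. Python 3.11.15, NumPy 2.4.6, pandas 2.3.3 and Matplotlib 3.10.9 were used.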

Additional observations from a re-analysis of the deposited data

How the results depend on the processing

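With 1 array per condition no result has replicate error, and the number of arrays limits the precision. No paired analysis was possible because a single array stands for each condition. In aging against young, the count of members over 2-fold (2) was 1 with normexp and with the mean over a gene's probes, and 0 at 5-fold. The median difference (-0.00) was -0.23 with the mean over probes and -0.27 with the second probe. Partners over 2-fold (14) were 7 with normexp and with the mean over probes, and 3 at 5-fold. For suppressed aging against aging, members over 2-fold (1) were 0 at 5-fold and 3 with the second probe, the median (-0.18) was 0.15 with the second probe, and partners (9) were 5 with normexp and 2 at 5-fold. For suppressed aging against young, members (1) were 0 with the mean over probes and 2 with the second probe, and partners (14) were 3 with normexp, 6 with the mean over probes and 2 at 5-fold. Some member differences were over 2-fold with the first probe. Among these, the second probe turned the sign of Tet3 in aging against young (0.033) and in suppressed aging against young (0.74). It also turned that of Trim28 in suppressed aging against aging (1.10). Smaller differences turned sign too, such as that of Trim28 in aging against young (-1.29), and all are counted below. Tet1 stayed between 1.03 and 1.18 in aging against young under the other settings and was 0.94 with the second probe. Of 30 member differences, the sign changed for 5 with normexp, 5 with the processed values, 4 with quantile normalization, 3 with centring on housekeeping genes, 8 with the mean over probes and 0 with the other centring, the outlier spots and the background filters. The second probe changed the sign of 14 of 24. For probes as dim as those of Tet3, the background correction limits what can be read.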
